A study of Homo sapiens with 18 samples.

Results

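H19, IGF2BP1, IGF2BP2, IGF2BP3, LIN28B and HMGA2 are grouped here as oncofetal genes. Such genes are active in the embryo, largely silent in most adult tissues and switched on again in many tumours. IGF2BP2 is an exception that stays on in many adult tissues. The 6 genes were followed in cells of the human DCIS lines DCIS.COM and SUM225 that had been grown in the mammary ducts of mice. The 6 genes were among 19163 genes that could be named, and 20 of the 54613 probe sets tested carried their symbols. A probe set is a group of short probes on the array that reads one transcript region. Symbols came from the authors' tables of probe sets called between 6 and 2 weeks in either line, so the members were chosen by the change between the 2-week and 6-week arrays. Of the 20 probe sets, 16 were listed for both lines, 1 for DCIS.COM only and 3 for SUM225 only. The only probe set of LIN28B and the brighter one of IGF2BP2 were among these 3. Each gene was represented by its brightest probe set over all 18 arrays, with the others beside it.

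The study asked how expression changes while ductal carcinoma in situ (DCIS) lesions form and then invade. DCIS.COM (basal-like, without ER, PR and HER2) and SUM225 (HER2-positive, without ER and PR) were injected into the ducts of 8 to 10 week old virgin female NSG mice, a strain without mature lymphocytes and natural killer cells that keeps its myeloid cells. These mouse intraductal (MIND) xenografts were collected after 2, 6 and 10 weeks, which gave 6 groups of 3 arrays, and EpCAM-positive cells were sorted magnetically, with the cells of 5 mice pooled in each replicate. No cultured cells and no uninjected glands stood beside them, and a difference between DCIS.COM and SUM225 is one between these 2 lines only.

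H19 is an imprinted long non-coding RNA, read from the maternal copy of a locus that it shares with IGF2, and it is the host of the microRNA miR-675. The IGF2BP proteins bind mRNAs, among them those of IGF2 and MYC, recognise m6A marks on them and protect them from decay. IGF2BP1 and IGF2BP3 are the oncofetal members of that family, while IGF2BP2 stays on in many adult tissues. LIN28B binds precursors of the let-7 microRNAs and blocks their maturation. HMGA2, a chromatin protein that bends DNA, is a classical target of let-7, and LIN28B and the IGF2BP genes are targets of it too. H19 RNA has itself been described as a sponge for let-7.

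The let-7 microRNAs are shown because they tie LIN28B to HMGA2 and the IGF2BP genes, and miR-675 because H19 carries it. In RefSeq (GRCh38.p14), 9 mature let-7 and miR-98 names came from 12 genes, and all 9 had the same seed, bases 2 to 8, which pair with the target and stand in capitals below. The 2 arms of miR-675 had seeds of their own. Mature microRNAs were not analysed here.
let-7a-5p: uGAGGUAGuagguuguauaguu
let-7e-5p: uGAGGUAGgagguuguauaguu
let-7g-5p: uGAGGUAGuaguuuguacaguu
miR-98-5p: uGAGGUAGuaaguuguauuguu
miR-675-5p: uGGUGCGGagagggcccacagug
miR-675-3p: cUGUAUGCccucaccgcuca

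The 6 genes lie on 6 chromosomes. In GRCh38.p14, H19 lies at chr11:1995176-2001266 on the minus strand, and both arms of miR-675 fall inside it, the 5p arm at chr11:1996800-1996822 and the 3p arm at chr11:1996768-1996787. IGF2BP1 lies at chr17:48996558-49056145, IGF2BP2 at chr3:185643130-185825042, IGF2BP3 at chr7:23310209-23470491, LIN28B at chr6:104937026-105083332 and HMGA2 at chr12:65824460-65966291. The start regions of H19 and IGF2BP3 are shown because the brightest probe sets of these genes moved in opposite directions in DCIS.COM and SUM225. The H19 window, chr11:2001217-2001516 on the minus strand, has the 50 bases from the start site on in capitals. The IGF2BP3 window, chr7:23470492-23470741 on the minus strand, holds the 250 bases before the start site with each E box (CACGTG, its own reverse complement) in capitals.
H19: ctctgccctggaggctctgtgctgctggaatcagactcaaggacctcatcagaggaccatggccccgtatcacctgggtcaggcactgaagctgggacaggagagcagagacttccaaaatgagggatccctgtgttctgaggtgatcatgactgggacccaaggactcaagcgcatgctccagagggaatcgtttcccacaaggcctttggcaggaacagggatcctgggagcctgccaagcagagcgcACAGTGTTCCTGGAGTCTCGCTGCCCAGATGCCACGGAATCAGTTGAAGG
IGF2BP3: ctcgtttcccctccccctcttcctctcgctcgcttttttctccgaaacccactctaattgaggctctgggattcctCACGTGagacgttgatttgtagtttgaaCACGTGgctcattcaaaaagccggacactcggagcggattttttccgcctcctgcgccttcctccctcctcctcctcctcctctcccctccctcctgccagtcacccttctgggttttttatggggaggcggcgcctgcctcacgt
Start regions of 300 bases were given for 4 of the 6 genes and searched on both strands for the E box, the GC box (GGGCGG), the TATA box (TATAAA) and the CCAAT box (CCAAT), which do not overlap in letters. IGF2BP3 held 2 E boxes, a motif found in 7.26% of 35116 start regions. H19 held none of the 4 motifs. The first start region of LIN28B held 2 GC boxes and that of IGF2BP2 held 7, against 45% of all start regions with at least 1. A second start region of LIN28B held 1 E box and 1 CCAAT box, and one of IGF2BP2 held 1 TATA box and 1 CCAAT box (TATA boxes in 11.5% and CCAAT boxes in 34.6% of all start regions). These matches describe the letters of the windows only.

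Values are log2 units after RMA, so that 1 unit is a factor of 2 in signal. The labels held up in the later arrays: all 4 genes of the HER2 amplicon were called higher in SUM225 than in DCIS.COM at 6 and at 10 weeks, KRT5 and KRT14 were called lower, and EPCAM was bright in both lines (12.66 to 13.04 over the 12 arrays). KRT19, a luminal keratin that the study used to stain human cells, was dim in DCIS.COM (5.0 to 6.95). The 3 arrays of SUM225 at 2 weeks stood apart from each other, with a lowest correlation of 0.76 between replicates against at least 0.966 in each other group. On these arrays, EPCAM was 12.73 in replicate 1, 11.72 in replicate 2 and 8.59 in replicate 3, and ERBB2 was 12.42, 11.32 and 9.21. The leukocyte list (9 of 9 genes measured) summed to between 9.37 and 10.24 there, against 8.72 to 9.0 in SUM225 at 6 weeks, and its macrophage gene AIF1 was 7.56, 8.04 and 8.37. The list of basal markers (4 of 4 measured) summed to 11.92 to 13.09, against 10.31 to 10.49 in SUM225 at 6 weeks. The fibroblast list (5 of 6 measured) summed to 9.60 to 11.13, against 9.09 to 10.15, with overlap. Higher sums without overlap were not particular to leukocyte and basal genes. The erythroid list (3 of 4 measured) summed to 9.41 to 9.87, against 8.51 to 8.73. The adipocyte list (3 of 4) summed to 7.29 to 8.35, against 6.78 to 7.21, and the muscle list (4 of 4) to 7.91 to 8.92, against 7.54 to 7.65. The endothelial list (4 of 4) overlapped, at 7.48 to 8.34 against 7.40 to 7.57. The array is human and the host a mouse, and how well these lists read host cells was not tested. RMA values have no zero, so no marker can be called absent.

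At 10 weeks, the level of 5 of the 6 genes differed between the lines. The authors' lists did not use the 10-week arrays, but the 6 genes were picked with earlier results of all these arrays known and their brightest probe sets over all 18 arrays, so this comparison is not independent of the choice either. H19, IGF2BP1, IGF2BP3 and LIN28B were called higher in SUM225 and IGF2BP2 lower (limma, adjusted p under 0.05 over all probe sets), and HMGA2 was not called. Over all genes 32.2% were called in either direction, 16.4% higher and 15.9% lower, so a call by itself is common between these lines. At 6 weeks 4 of the 6 were called, H19 and LIN28B higher and IGF2BP2 and HMGA2 lower, against 37% of all genes, 19.7% higher and 17.2% lower. At 2 weeks 4 of the 6 were called, H19, IGF2BP2, IGF2BP3 and HMGA2, all lower in SUM225, against 2.44% of all genes in either direction, 0.0783% higher and 2.36% lower. The 2-week count was 1, IGF2BP3, without DCIS.COM replicate 1, DCIS.COM replicate 3 or SUM225 replicate 2. The 6-week and 2-week comparisons used arrays on which the rule rests.

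**Figure D1:**
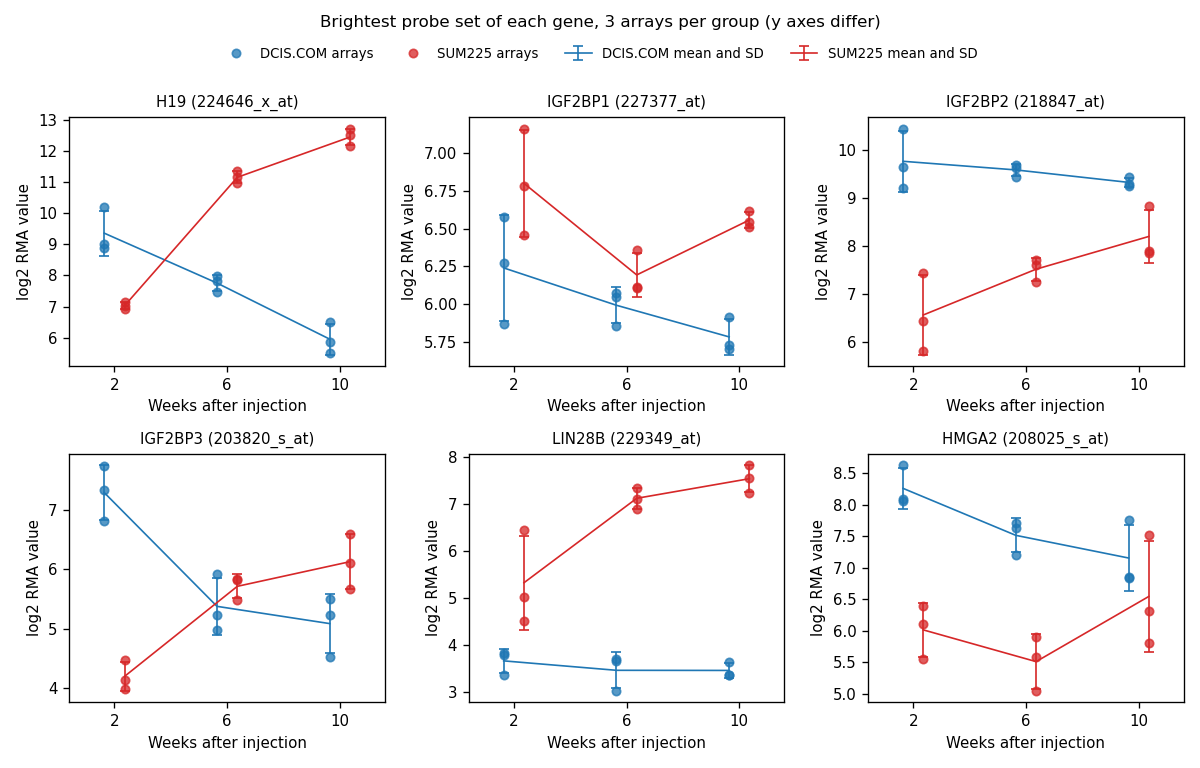
Log2 RMA values of the brightest probe set of each gene (y axis, its range differs between panels) against weeks after injection, with a point per array and lines through the means with SD bars (n = 3). H19 crossed over between the lines, from 7.03 in SUM225 against 9.36 in DCIS.COM at 2 weeks to 12.44 against 5.96 at 10 weeks, while LIN28B stayed between 3.02 and 3.83 on every DCIS.COM array.

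H19 gave the widest span of the 6 genes, from 5.52 on a DCIS.COM array of 10 weeks to 12.68 on a SUM225 array of 10 weeks. In DCIS.COM it read 9.01, 8.87 and 10.19 at 2 weeks, 7.97, 7.47 and 7.82 at 6 weeks, and 5.85, 6.49 and 5.52 at 10 weeks. In SUM225 it read 7.14, 7.03 and 6.91 at 2 weeks, 11.15, 10.96 and 11.34 at 6 weeks, and 12.15, 12.49 and 12.68 at 10 weeks. Each later group of DCIS.COM thus lay wholly below the one before it, and each later group of SUM225 wholly above. Ordered by mean, the 6 groups ran from DCIS.COM at 10 weeks through SUM225 at 2 weeks, DCIS.COM at 6 and 2 weeks and SUM225 at 6 weeks to SUM225 at 10 weeks, and no neighbours in that order overlapped. In bulk RNA such as this, fewer cells that carry a transcript and less of it per cell cannot be told apart.

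Between the lines, H19 differed by -2.33 log2 units (SUM225 minus DCIS.COM) at 2 weeks (SE 0.37, limma adjusted p = 0.026). It was 3.39 higher in SUM225 at 6 weeks (SE 0.16, limma adjusted p = 3.4e-07), a factor of 10.5. At 10 weeks it was 6.48 higher (SE 0.24, limma adjusted p = 2e-07), a factor of 89.5, and every SUM225 array lay above every DCIS.COM array at both later times. The factor of 89.5 is not exact, since the DCIS.COM arrays of 10 weeks (5.52 to 6.49) were not shown to be above background. The second H19 probe set gave a factor of 29.6. The 2-week call was lost without DCIS.COM replicate 1 (adjusted p = 0.087), DCIS.COM replicate 3 (0.069) or SUM225 replicate 2 (0.15), although the difference stayed between -2.57 and -1.91.

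Within the lines, the changes from 2 weeks are given without a test because the rule used that contrast. In DCIS.COM, mean H19 differed from 2 weeks by -1.60 at 6 weeks and by -3.40 at 10 weeks. In SUM225, it was 4.12 higher at 6 weeks, a factor of 17.4, and 5.41 higher at 10 weeks, a factor of 42.5. By the second H19 probe set these factors were 3.61 and 9.10. None of these factors is exact, since the SUM225 arrays of 2 weeks were not shown to be above background. Replicates 2 and 3 of SUM225 at 2 weeks, whose epithelial and HER2 markers were low, read nearly the same H19 as replicate 1, and against replicate 1 alone the rise to 6 weeks came to 4.0 and that to 10 weeks to 5.30. The median change over all genes from 2 to 6 weeks was itself -0.38 in SUM225 and -0.14 in DCIS.COM, and with each array centred on its median the changes of H19 were 4.38 and -1.44.

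From 6 to 10 weeks, H19 was the 1 gene of the 6 whose change was called different between the lines after adjustment. None of the 6 was called within DCIS.COM, against 0.0157% of all genes, or within SUM225, against 0.00522%. At an unadjusted p under 0.05, limma gave 1 of the 6 genes in DCIS.COM (3.7% of all genes) and 5 in SUM225 (7.11%). The change of H19 was -1.80 in DCIS.COM (SE 0.24, limma adjusted p = 0.23) and 1.29 in SUM225 (SE 0.16, limma adjusted p = 0.054), with no overlap of arrays in either line. Without replicate 2 of 10 weeks the DCIS.COM change was -2.07 (limma adjusted p = 0.035), and without replicate 1 of 10 weeks the SUM225 change was 1.44 (limma adjusted p = 0.013). The SUM225 change was also called with the replicate number as a block (limma adjusted p = 0.011), with a variance trend (0.026) and with array weights (0.032). It stayed uncalled in 5 of 8 alternative settings and in 5 of 6 fits with a replicate left out. The DCIS.COM change stayed uncalled in 8 of 8 settings and in 5 of 6 such fits. The difference between those changes was 3.09 (SE 0.32, 95% interval 2.41 to 3.78, limma adjusted p = 0.0029), and it was 1 of 4 genes called in that test (0.0209% of all genes). At an unadjusted p under 0.05, that test gave 4 of the 6 genes (3.37% of all genes), H19, IGF2BP1, IGF2BP2 and HMGA2. The H19 difference held with each of the 12 arrays left out in turn, between 2.87 and 3.36. The 6-week arrays in this test also served the rule.

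The second H19 probe set, 224997_x_at, read lower and had the same order of group means within each line. Its mean in DCIS.COM went from 6.92 to 5.65 to 4.48 and in SUM225 from 6.18 to 8.03 to 9.37 over the 3 times, and its DCIS.COM arrays of 6 and 10 weeks overlapped. SUM225 was 4.89 above DCIS.COM at 10 weeks (SE 0.41, limma adjusted p = 2.5e-05) and 2.38 above at 6 weeks (SE 0.19, limma adjusted p = 1.1e-05). The 2-week difference of -0.74 was not called (SE 0.31, limma adjusted p = 0.33), and neither was the difference between the lines in the change from 6 to 10 weeks, at 2.50 (95% interval 1.39 to 3.62, limma adjusted p = 0.39). Both H19 probe sets carry the suffix x_at, which Affymetrix gives where probes may also match other transcripts.

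By its brightest probe set, IGF2BP3, the oncofetal mRNA-binding protein, showed a smaller crossing of the same kind. In DCIS.COM, its probe set 203820_s_at read 7.33, 6.81 and 7.74 at 2 weeks, 5.92, 4.98 and 5.24 at 6 weeks, and 4.53, 5.23 and 5.50 at 10 weeks. In SUM225, it read 4.47, 4.15 and 3.99 at 2 weeks, 5.84, 5.82 and 5.49 at 6 weeks, and 5.68, 6.11 and 6.60 at 10 weeks. In each line, the 2-week arrays stood clear of the later ones, above them in DCIS.COM and below them in SUM225, and the 6-week arrays of the 2 lines overlapped. Without a test, the change from 2 weeks in DCIS.COM was -1.91 at 6 weeks and -2.20 at 10 weeks, and in SUM225 it was 1.51 and 1.93. Against SUM225 replicate 1 alone those 2 rises were 1.25 and 1.66. The SUM225 arrays of 2 weeks (3.99 to 4.47) and the DCIS.COM arrays of 10 weeks (4.53 to 5.50) were not shown to be above background.

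IGF2BP3 differed by -3.09 (SUM225 minus DCIS.COM) at 2 weeks (SE 0.30, limma adjusted p = 0.004). With the mean of its 5 probe sets in place of the brightest, this difference was -0.58 and not called (limma adjusted p = 0.32). At 6 weeks the difference of 0.34 was not called (95% interval -0.16 to 0.83, limma adjusted p = 0.32), and without DCIS.COM replicate 1 it was 0.61 and called (limma adjusted p = 0.024). At 10 weeks SUM225 was 1.04 above (SE 0.28, limma adjusted p = 0.023). That call was lost without DCIS.COM replicate 1 (adjusted p = 0.056), SUM225 replicate 2 (0.066) or SUM225 replicate 3 (0.091). A second probe set, 203819_s_at, was called higher in SUM225 at 10 weeks by 1.19 (SE 0.30, limma adjusted p = 0.015) and at 6 weeks by 0.52 (SE 0.16, limma adjusted p = 0.035), while its SUM225 arrays of 2 and 6 weeks overlapped. Its 2-week difference of -1.25 was not called (SE 0.38, limma adjusted p = 0.19). The dim probe sets 216494_at, 1569033_at and 216493_s_at were not called between the lines at any time.

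IGF2BP2, the family member that adult tissues keep, was called lower in SUM225 at every time by its brightest probe set and at no time by its other one. In DCIS.COM, 218847_at read 10.44, 9.19 and 9.64 at 2 weeks, 9.62, 9.68 and 9.43 at 6 weeks, and 9.24, 9.28 and 9.43 at 10 weeks. In SUM225, it read 7.44, 6.43 and 5.80 at 2 weeks, 7.59, 7.70 and 7.24 at 6 weeks, and 8.83, 7.89 and 7.85 at 10 weeks. Every SUM225 array lay below every DCIS.COM array at each time, the DCIS.COM groups overlapped each other, and the SUM225 group of 10 weeks lay above its earlier groups.

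The difference of IGF2BP2 (SUM225 minus DCIS.COM) was -3.20 at 2 weeks (SE 0.48, limma adjusted p = 0.021), -2.07 at 6 weeks (SE 0.14, limma adjusted p = 4.7e-06) and -1.13 at 10 weeks (SE 0.24, limma adjusted p = 0.0071). Its 2-week call was lost without DCIS.COM replicate 1 or 3 or SUM225 replicate 2 (adjusted p = 0.094, 0.097 and 0.13). In SUM225, IGF2BP2 followed EPCAM over the 3 replicates of 2 weeks, and its change from 2 to 6 weeks of 0.95 came to 0.07 against replicate 1 alone, with 0.75 in place of 1.63 from 2 to 10 weeks. From 6 to 10 weeks it was 0.68 higher in SUM225 (95% interval 0.12 to 1.24, limma adjusted p = 0.59). The second probe set, 223963_s_at, had group means between 4.78 and 5.67 and was not called at any time. Its differences were 0.35 at 2 weeks, -0.17 at 6 weeks and -0.43 at 10 weeks (limma adjusted p = 0.43, 0.39 and 0.065).

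IGF2BP1, the remaining family member, varied least. In DCIS.COM, 227377_at read 5.87, 6.27 and 6.58 at 2 weeks, 6.07, 6.05 and 5.86 at 6 weeks, and 5.92, 5.70 and 5.73 at 10 weeks. In SUM225, it read 6.46, 6.78 and 7.16 at 2 weeks, 6.10, 6.36 and 6.11 at 6 weeks, and 6.54, 6.62 and 6.51 at 10 weeks. All DCIS.COM groups overlapped, and SUM225 lay wholly above DCIS.COM at 6 and 10 weeks. SUM225 was 0.77 higher at 10 weeks (SE 0.12, limma adjusted p = 0.0014), and the differences of 0.20 at 6 weeks (95% interval -0.07 to 0.47) and 0.56 at 2 weeks (95% interval -0.12 to 1.23) were not called. The probe set 223689_at was called higher in SUM225 at 10 weeks by 1.13 (SE 0.14, limma adjusted p = 0.00033) and at 6 weeks by 0.81 (SE 0.16, limma adjusted p = 0.0035). The dim probe set 241574_s_at was not called at any time.

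LIN28B, the let-7 blocker, was read in SUM225 and stayed at the low end of the scale in DCIS.COM. Its single probe set 229349_at read 3.37, 3.83 and 3.78 at 2 weeks, 3.02, 3.66 and 3.70 at 6 weeks, and 3.64, 3.37 and 3.37 at 10 weeks in DCIS.COM. In SUM225, it read 6.44, 5.03 and 4.50 at 2 weeks, 7.35, 6.90 and 7.11 at 6 weeks, and 7.24, 7.54 and 7.82 at 10 weeks. Arrays of the 2 lines did not overlap at any time, the SUM225 group of 2 weeks lay below the later groups, and those of 6 and 10 weeks overlapped.

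SUM225 was 3.66 above DCIS.COM in LIN28B at 6 weeks (SE 0.19, limma adjusted p = 8.4e-07) and 4.08 above at 10 weeks (SE 0.17, limma adjusted p = 3.6e-07). LIN28B was listed through its change from 2 to 6 weeks in SUM225 only, the line where it read high. The 6-week p-value therefore rests on arrays that the rule used and is not independent of the choice. No fold is given, since LIN28B in DCIS.COM was not shown to be above background. At 2 weeks the difference was 1.66 (SE 0.47, 95% interval 0.57 to 2.76, limma adjusted p = 0.16). The 2-week replicates of SUM225 fell in the order of their EPCAM values, and with replicate 1 alone, which then is taken to vary like the DCIS.COM arrays, the difference was 2.78 (limma adjusted p = 0.0022). Without replicate 1 it was 1.10 (limma adjusted p = 0.024). In SUM225, LIN28B was 1.80 higher at 6 than at 2 weeks without a test, and 0.68 higher against replicate 1 alone. The part of the other cells in these values was not tested.

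HMGA2, the let-7 target, was the only one of the 6 that was called lower in SUM225 at 2 and 6 weeks and not called at 10 weeks. In DCIS.COM, 208025_s_at read 8.10, 8.06 and 8.63 at 2 weeks, 7.63, 7.71 and 7.21 at 6 weeks, and 6.84, 7.77 and 6.86 at 10 weeks. In SUM225, it read 5.55, 6.11 and 6.39 at 2 weeks, 5.91, 5.59 and 5.05 at 6 weeks, and 7.53, 5.80 and 6.31 at 10 weeks. In DCIS.COM, the 2-week arrays stood above the later ones, the SUM225 groups overlapped each other, and replicate 1 of SUM225 at 10 weeks reached into the range of DCIS.COM.

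HMGA2 differed by -2.25 (SUM225 minus DCIS.COM) at 2 weeks (SE 0.30, limma adjusted p = 0.014) and by -2.0 at 6 weeks (SE 0.22, limma adjusted p = 8.4e-05). At 10 weeks the difference was -0.61 (95% interval -1.53 to 0.31, limma adjusted p = 0.36), and without replicate 1 of SUM225 it was -1.10 (limma adjusted p = 0.024). The 2-week call was lost without DCIS.COM replicate 1 or 3 or SUM225 replicate 2 (adjusted p = 0.07, 0.094 and 0.095). The probe set 1567224_at was called lower in SUM225 as well, with -1.02 at 6 weeks (SE 0.14, limma adjusted p = 4e-04) and -1.40 at 2 weeks (SE 0.26, limma adjusted p = 0.047). The other HMGA2 probe sets, 1559891_at, 1558683_a_at, 1567223_at, 1558682_at and 1561633_at, were not called at any time, and with the mean of all 7 probe sets the 2-week difference was -0.32 and not called (limma adjusted p = 0.43).

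**Figure D2:**
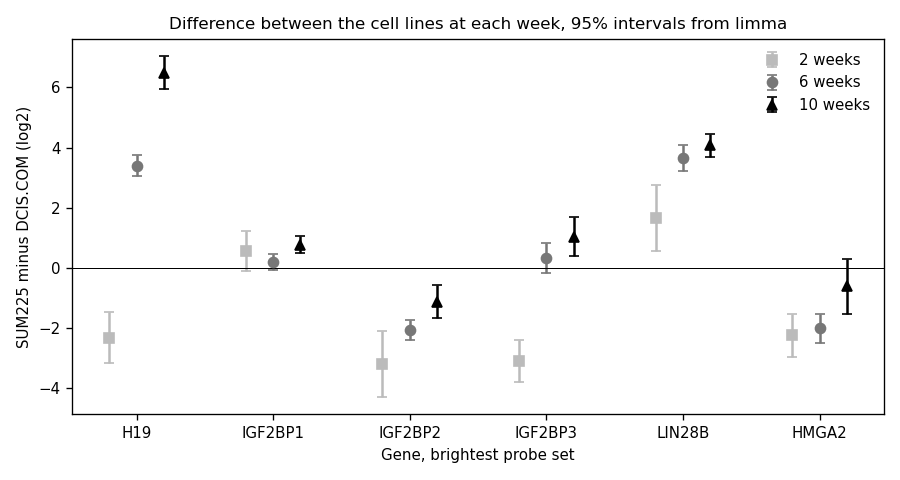
SUM225 minus DCIS.COM in log2 units (y axis) for the brightest probe set of each gene (x axis) at 2, 6 and 10 weeks, with 95% intervals from limma. H19 went from -2.33 to 6.48 and IGF2BP3 from -3.09 to 1.04, whereas IGF2BP2 stayed below 0 and LIN28B above 0 at all 3 times.

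Without a test, the arrays of 3 genes (H19, IGF2BP3 and HMGA2) were all lower at 6 than at 2 weeks in DCIS.COM, where 62% of all genes did not overlap between these times and 35% were lower. The same 3 genes were all lower at 10 than at 2 weeks, where 57.4% of all genes did not overlap and 31.5% were lower. In SUM225, 3 genes were all higher at 6 than at 2 weeks (H19, IGF2BP3 and LIN28B) and IGF2BP1 all lower, against 77% of all genes without overlap, 33.2% higher and 43.8% lower. At 10 weeks, 4 genes were all higher than at 2 weeks (H19, IGF2BP2, IGF2BP3 and LIN28B), against 77.3% without overlap and 32.5% higher. From 6 to 10 weeks, H19 alone of the 6 lay lower without overlap in DCIS.COM (7.38% of genes in either direction), and 3 of the 6 lay higher in SUM225 (12.4% in either direction, 4.54% higher), among them H19 and IGF2BP2. The third of these was IGF2BP1, from 6.19 ± 0.14 to 6.56 ± 0.06 (SD, n = 3). Changes in DCIS.COM and SUM225 that start from 2 weeks share the 2-week arrays of the line. All genes here are the 19163 with a symbol, and symbols came from lists of probe sets called between 6 and 2 weeks. The shares without overlap are therefore not those of every gene on the array.

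Counted over all 20 probe sets, 7 were called higher and 1 lower in SUM225 at 10 weeks, against 26.3% of all probe sets in either direction. At 6 weeks 5 were higher and 3 lower, against 29.7%, and at 2 weeks 5 were lower and none higher, against 1.59%. The probe sets of one gene read the same RNA and are not independent. Of the 20, 9 had a mean under 5 over the 18 arrays, near the dim end, and 8 of these had their highest group mean in SUM225 at 2 weeks, where 78% of all 10577 named probe sets under 5 had theirs. The dim probe sets of IGF2BP3 and HMGA2 were thus lower at 6 than at 2 weeks in SUM225, as most dim probe sets were, while the brightest IGF2BP3 probe set was higher. Among these 20, the smallest change from 2 to 6 weeks of a probe set listed for the line was -0.23 in DCIS.COM (HMGA2, 1561633_at). In SUM225 it was 0.32 (IGF2BP3, 203819_s_at). Among those not listed for the line were LIN28B at -0.20 and IGF2BP2 at -0.18 in DCIS.COM, and IGF2BP1 223689_at at -0.29 in SUM225.

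**Figure D3:**
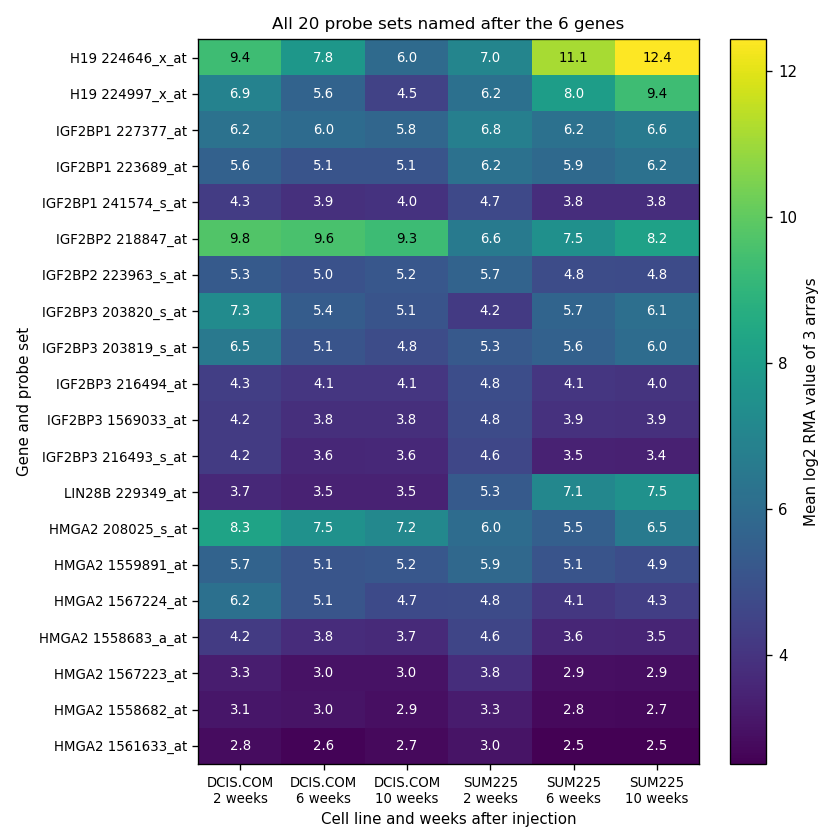
Mean log2 RMA value of 3 arrays (colour and printed number) for all 20 probe sets of the 6 genes (rows) in the 6 groups (columns). Both H19 probe sets ran in opposite directions in the 2 lines, and the 4 HMGA2 probe sets at the foot had their highest means in SUM225 at 2 weeks.

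**Figure D4:**
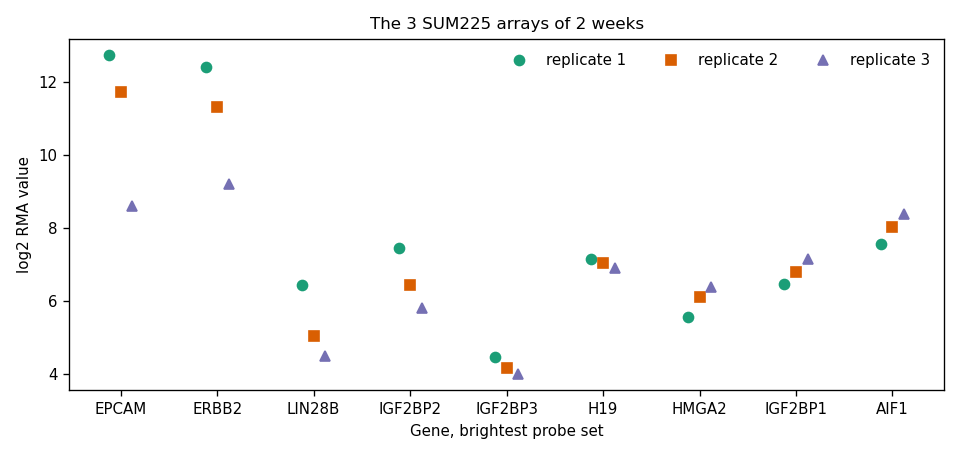
Log2 RMA values (y axis) of EPCAM, ERBB2, the 6 genes and AIF1 (x axis) on the 3 SUM225 arrays of 2 weeks, with a symbol per replicate. EPCAM ran from 12.73 to 8.59, LIN28B and IGF2BP2 went down with it, H19 stayed between 6.91 and 7.14, and HMGA2, IGF2BP1 and AIF1 were highest in replicate 3.

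Genes that work with the 6 were counted in the same tests. Over all genes, 16.4% were called higher in SUM225 and 15.9% lower at 10 weeks, and 19.7% and 17.2% at 6 weeks. The counts below stand beside these shares and were not tested as lists. In IGF signalling, 1 of 13 measured genes was called higher in SUM225 at 10 weeks and 7 lower, with a median difference of -0.85 against -0.01 over all genes. IGFBP5, an IGF-binding protein, was 4.87 higher (SE 0.33, limma adjusted p = 7.5e-06), while IGFBP3, the main IGF carrier of serum, was lower, at -3.46 (SE 0.29, limma adjusted p = 2.8e-05). The receptor adaptor IRS2 was lower too, at -1.96 (SE 0.23, limma adjusted p = 2e-04). IGF2 itself had no probe set with its symbol alone and is not reported.

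Imprinted genes other than H19 went both ways. Of 16 measured, 4 were called higher and 7 lower in SUM225 at 10 weeks, with a median of -0.13. PEG3, a paternally expressed zinc finger gene, was 6.56 higher (limma adjusted p = 4.5e-07) and SNRPN, a splicing protein gene of the Prader-Willi region, 4.31 higher (limma adjusted p = 8.7e-08). Their DCIS.COM means of 3.27 and 3.29 were not shown to be above background, so these differences give no exact fold. MEST (-1.91) and PEG10 (-1.67), a gene derived from a retrotransposon, were called lower. Of the other oncofetal genes, 5 of 11 were higher and 2 lower, led by CEACAM6 at 5.07 and CEACAM5 at 3.31, the carcinoembryonic antigen family, with PEG10 and TPBG lower.

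In the let-7 pathway, 2 of 10 genes were called higher and 2 lower in SUM225 at 10 weeks. TUT4, which adds uridines to let-7 precursors held by LIN28A, was 0.68 higher (SE 0.18, limma adjusted p = 0.021) and its relative TUT7 lower, at -1.10 (SE 0.19, limma adjusted p = 0.0019). DROSHA, the nuclear microRNA nuclease, was 0.64 higher and AGO2, the slicer, lower at -0.95. Of the 16 let-7 targets, 1 was higher and 4 lower at 10 weeks and 4 higher and 3 lower at 6 weeks, with medians of -0.06 and -0.02. CDK6, a cell-cycle kinase, was 1.41 higher, and the RAS genes NRAS (-3.98) and HRAS (-2.26) were lower at 10 weeks.

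Among the 13 genes of the m6A pathway, whose mark the IGF2BP proteins read, 4 were higher and 3 lower in SUM225 at 10 weeks, with a median of 0.13. The methyltransferase METTL3 was 1.93 higher and the demethylase FTO 1.14 higher, while the demethylase ALKBH5 (-1.44) and the reader YTHDF3 (-0.90) were lower. Of 13 partners of the IGF2BP complexes, 2 were higher (STAU1 by 0.85 and PABPC1 by 0.82) and 3 lower (among them FXR2 at -0.88 and ILF2 at -0.84). At 2 weeks, 2 IGF signalling genes, 2 let-7 targets and 1 m6A gene were called lower and none of these lists had a gene called higher. IGF1R was counted in both the IGF signalling list and the let-7 target list. Over all genes, 2.36% were called lower and 0.0783% higher at 2 weeks. From 6 to 10 weeks no gene of the 7 lists was called in either line, against 0.0157% of all genes in DCIS.COM and 0.00522% in SUM225.

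Other cells were counted in the same way at 10 weeks, where 16.4% of all genes were called higher in SUM225 and 15.9% lower. The leukocyte list had 0 of 9 genes higher and 1 lower in SUM225 (CD14 at -1.04), and its summed level was 8.88 to 9.25 in DCIS.COM and 8.78 to 8.92 in SUM225. The fibroblast list had 1 of 5 higher (COL1A2 by 2.34) and the endothelial list 2 of 4 lower (KDR at -1.78 and PECAM1 at -1.72). Their part in the differences of the 6 genes was not tested.

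For each gene, the 3 genes most like it over the 18 arrays were named by Pearson's r among 10691 genes with enough signal and range. H19 was most like C5orf13 (r = 0.888), VIT (0.882) and ARMCX1 (0.881), and of these VIT also had lower means at each later time in DCIS.COM (6.45, 5.75 and 5.45) and higher ones in SUM225 (6.10, 6.84 and 7.16). LIN28B was most like ZNF738 (0.994), GALC (0.992) and ARMCX3 (0.992), each below 3.3 on average in every DCIS.COM group. IGF2BP2 was most like B3GNT5 (0.975), TEAD1 (0.967) and LMNA (0.967), and HMGA2 most like the receptor kinase AXL (0.952), TMEM158 (0.928) and the collagen gene COL4A1 (0.903). IGF2BP3 was most like COL9A3 (0.861), GJC1 (0.815) and SLC6A6 (0.785), and IGF2BP1 most like RPP25 (0.933), BMF (0.932) and HSPB8 (0.922). The arrays share 2 lines, 3 times and the 2-week arrays that stood apart, so these values describe likeness over 18 arrays and carry no test.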

How the data were processed

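RNA of EpCAM-sorted cells was hybridised to 18 Affymetrix human U133 Plus arrays, in 6 groups of 3. The authors summarized each probe set with RMA and deposited the values on a log2 scale. Partek is also named in the labels, and neither tool has a version there. The genome build and the annotation version are not given in the sources used here. The authors' deposited lists of called probe sets came from SAM at 6 against 2 weeks. Gene names alone were taken from these lists. Their fold changes, deposited as a ratio (DCIS.COM) or a signed score (SUM225), and their q-values, deposited in percent, were not used, and neither were the Wnt tables.

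From 54675 probe sets, the 62 Affymetrix controls were dropped, which left 54613 without a missing value. Of these, 36823 had a single symbol, 866 several and 15 a date in its place, and 16909 were in no list. Probe sets of a gene that were never called can therefore be missing. Shares over all genes are shares of the 19163 named genes. limma 3.58.1 (R 4.3.3) was fitted to the 6 arrays of each comparison, or 12 for the interaction. Adjusted p-values (Benjamini-Hochberg) ran over all probe sets, with a threshold of 0.05. The scripts were tested on simulated data. With 3 arrays per group the smallest exact two-sided permutation p is 0.1, so the array number sets the precision. The labels call the replicates biological.

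The members and the gene lists were chosen with earlier results of these data known. The text names the 6 genes with all their probe sets, up to 2 genes called higher and 2 lower of each list by size of difference, and the 3 genes most like each member. Alternatives were median centring, a second quantile normalization, a filter at a mean of 5, all arrays in 1 fit, array weights, a variance trend, the replicate block, the mean of a gene's probe sets and leaving out each replicate. Sequences and coordinates are from RefSeq (GRCh38.p14).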

Additional observations from a re-analysis of the deposited data

Results flagged for a closer look

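The change of H19 from 6 to 10 weeks differed between the lines by 3.09 log2 units (SUM225 minus DCIS.COM, limma adjusted p = 0.0029), with all 3 SUM225 arrays higher and all 3 DCIS.COM arrays lower at 10 weeks. The difference itself was tested, but the 6-week arrays of that test also served the rule. H19 was also picked with earlier results of these data known, so the test is not independent of the choice. The second H19 probe set, 224997_x_at, gave 2.50 and was not called (limma adjusted p = 0.39). The changes of H19 from 2 to 6 weeks and from 2 to 10 weeks differed by 5.72 and 8.81. Those of IGF2BP3 differed by 3.43 and 4.13. For both genes, every later SUM225 array lay above the 2-week arrays of its line and every later DCIS.COM array below. The second IGF2BP3 probe set, 203819_s_at, changed from 2 to 6 weeks by 0.32 in SUM225, with overlap, and by -1.45 in DCIS.COM. From 2 to 10 weeks it changed by 0.74 and -1.71. The dim IGF2BP3 probe sets had lower means at both later times in both lines. The differences between the lines in changes from 2 weeks were not tested, since they use the contrast that listed the genes or its 2-week arrays.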

How the results depend on the processing

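The counts of called genes kept within 1.5 times at 10 weeks (5), at 6 weeks (4) and in the difference between the lines from 6 to 10 weeks (1) under the alternatives run. At 2 weeks the count of 4 fell to 2 with the mean of all named probe sets of a gene and lay between 1 and 5 with a replicate left out. From 6 to 10 weeks in DCIS.COM, the count of 0 lay between 0 and 1 with a replicate left out (H19 without replicate 2 of 10 weeks, adjusted p = 0.035). In SUM225 it became 1, H19, with a variance trend and robust moderation (adjusted p = 0.026) and with array weights (0.032), and lay between 0 and 1 with a replicate left out (without replicate 1 of 10 weeks, 0.013). The cause was not tested. Samples were not treated as paired by replicate number, since in no comparison was the correlation of same-numbered deviations over 0.1 for every pair. That rule cannot exclude pairing of some arrays. Between the lines at 2 weeks the correlations were 0.632, 0.377 and 0.048 for replicates 1, 2 and 3, and elsewhere they ran from -0.447 to 0.242. With the replicate number as a block H19 was 1 call in SUM225 from 6 to 10 weeks (limma adjusted p = 0.011).

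LIN28B in DCIS.COM from 6 to 10 weeks, at -0.0027, changed sign with median centring (0.0072), renewed quantile normalization (0.0023), array weights (0.056) and with replicates left out (-0.22 to 0.12). IGF2BP2 at 2 weeks missed the threshold with median centring (adjusted p = 0.0501). LIN28B and IGF2BP1 at 2 weeks passed it with all 18 arrays in 1 fit (0.0047 and 0.049) and with array weights, which did not converge there. With the mean of a gene's probe sets, IGF2BP3 missed it at 2 and 10 weeks (0.32 and 0.058) and HMGA2 at 2 weeks (0.43), and IGF2BP1 passed it at 6 weeks (0.038). Over all probe sets, the 871 calls at 2 weeks became 10594 with all arrays in 1 fit, 3150 with the block and 41308 with array weights, and lay between 170 and 19050 with a replicate left out. The 16233 calls at 6 weeks became 8905 with all arrays in 1 fit. From 6 to 10 weeks, the 3 calls in DCIS.COM lay between 0 and 12 and the 7 in SUM225 between 2 and 168. The quantile normalization of the changes from 2 weeks was chosen after seeing the data.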
